A study of Danio rerio with 6 samples.

Results

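The miR-92 loci of the zebrafish genome were followed in small RNA libraries from injured and control telencephalic hemispheres of adult fish. The set holds 3 of the 434 annotated miRNA loci, which are mir92a-1 (ENSDARG00000104805), mir92a-2 (ENSDARG00000082154) and mir92b (ENSDARG00000089196). They were taken by identifier, as the loci whose symbol names miR-92. The symbol table gives MIR92A1 to both mir92a loci, and the copy names used here are those of the study. The members were selected on the difference between injured and control libraries and on their level, both already known. Their own levels and fold changes are therefore given as a description, without a test.

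The injured group consisted of 3 libraries from hemispheres wounded by insertion of a needle, and the control group of 3 libraries from healthy, untreated hemispheres. The labels give no strain, sex, age or time after injury. The study's methods place RNA collection days after the lesion and describe each hemisphere as processed separately. For its mRNA libraries, whose RNA was made the same way, the study used the other hemisphere of injured fish as control, so the control hemispheres may come from wounded fish. Which libraries would share a fish is not given in the sources used here. The libraries were made from whole hemispheres, so fewer cells of a type and less RNA per cell cannot be told apart.

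MicroRNAs guide silencing complexes to messenger RNAs, mainly through a short seed near their 5′ end, and miRNAs with the same seed are grouped as 1 family. miR-92a, miR-92b, miR-25 and miR-363 belong to such a family. miR-92a is made from miR-17-92 clusters, in which several miRNAs are cut from 1 primary transcript. In mammals these clusters are known for promoting cell proliferation, in mouse cortex miR-92 limits the production of intermediate neuronal progenitors, and in mouse vessels miR-92a restrains the growth of new vessels. miR-92b comes from a separate gene.

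The injured libraries held between 11473850 and 14545864 reads at miRNA loci, and the control libraries between 2475462 and 4008607. Library depth split along the same line as injury, with the shallowest injured library 2.86 times as deep as the deepest control library, so depth and injury cannot be told apart. In the comparison of all loci by edgeR, with a quasi-likelihood test and p-values adjusted after Benjamini and Hochberg, 24 of 188 tested loci (12.8%) passed an adjusted p of 0.05, with 20 higher (10.6%) and 4 lower (2.13%) in injured hemispheres. That count was 10 without injured library 3, control library 1 or control library 3, and 14 without control library 2. The 188 tested loci include the miR-92 loci. As a check of the tissue label, the 20 loci of the neuron list together had 126643 to 139241 reads per 1000000 reads at miRNA loci (RPM) in injured libraries and 134581 to 147681 RPM in control libraries. A single locus, dre-mir-132-2, supplied 93.2% to 94.4% of these reads.

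mir92b had the most counted reads of the miR-92 loci. It had 88327, 88732 and 99574 RPM in the injured libraries, against 87121, 93848 and 90754 RPM in the control libraries. The groups overlapped, and injured library 3 stood above the other 5 libraries. The means were 92211 ± 6380 RPM in injured and 90574 ± 3367 RPM in control hemispheres (SD, n = 3 each). mir92b held rank 3 among the 434 loci in 5 libraries and rank 4 in injured library 2. Averaged over the 6 libraries, dre-mir-132-2 lay directly above it with 128943 RPM and mir9-4 directly below it with 81438 RPM. The ranges of mir92b and mir9-4 over the libraries overlapped, while those of mir92b and dre-mir-132-2 did not.

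mir92a-1, the last miRNA gene of a miR-17-92 cluster, was lower in each injured library. It had 24878, 24405 and 24906 RPM in the injured libraries, against 30174, 30938 and 29740 RPM in the control libraries. The groups did not overlap, and the highest injured library lay well below the lowest control library. The means were 24729 ± 282 RPM in injured and 30284 ± 606 RPM in control hemispheres (SD, n = 3 each), a difference of −18.3%. Over the 9 pairs of an injured with a control library, the log2 ratio lay between −0.34 and −0.26. The locus ranked 9, 9 and 10 in the injured libraries and 8 in each control library. By mean level mir30d stood directly above it with 29058 RPM and MIRLET7I directly below it with 23075 RPM. mir30d was above mir92a-1 in the injured libraries and below it in the control libraries, and it was itself higher in injured hemispheres (log2 fold change 0.20 ± 0.05, SE; adjusted p = 0.0466 by edgeR). This call was lost when any library other than injured library 1 was left out, with adjusted p between 0.0890 and 0.184, and also with DESeq2 (adjusted p = 0.134) and under upper-quartile scaling (adjusted p = 0.457). It was lost as well with loci kept from 1 read upwards (adjusted p = 0.0601) and with the replicate number as a block (adjusted p = 0.0611).

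mir92a-2 gave far fewer reads. It had 1807, 1304 and 1302 reads in the injured libraries, against 428, 705 and 405 reads in the shallower control libraries. Scaled to reads at miRNA loci this was 124, 113 and 113 RPM in the injured libraries, against 163, 176 and 164 RPM in the control libraries. The groups again did not overlap. The means were 117 ± 6.32 RPM in injured and 167 ± 7.28 RPM in control hemispheres (SD, n = 3 each), a difference of −30.2%. Its 95% exact binomial intervals ran from 107 to 130 RPM over the injured libraries and from 148 to 189 RPM over the control libraries. Such intervals cover counting error only. mir92a-2 ranked 106, 110 and 112 in the injured libraries and 97, 94 and 95 in the control libraries. mir7a-2 with a mean of 144 RPM and mir200a with 141 RPM lay next to its mean of 142 RPM, and the ranges of all 3 loci overlapped.

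Among the miR-92 loci, 2 of 3 thus had all injured libraries below all control libraries in RPM. The same separation was found at 5.85% of the 188 tested loci, the miR-92 loci included, and separation in either direction at 22.9%. Since the loci were chosen with this contrast known, nothing is read from that count.

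**Figure D1:**
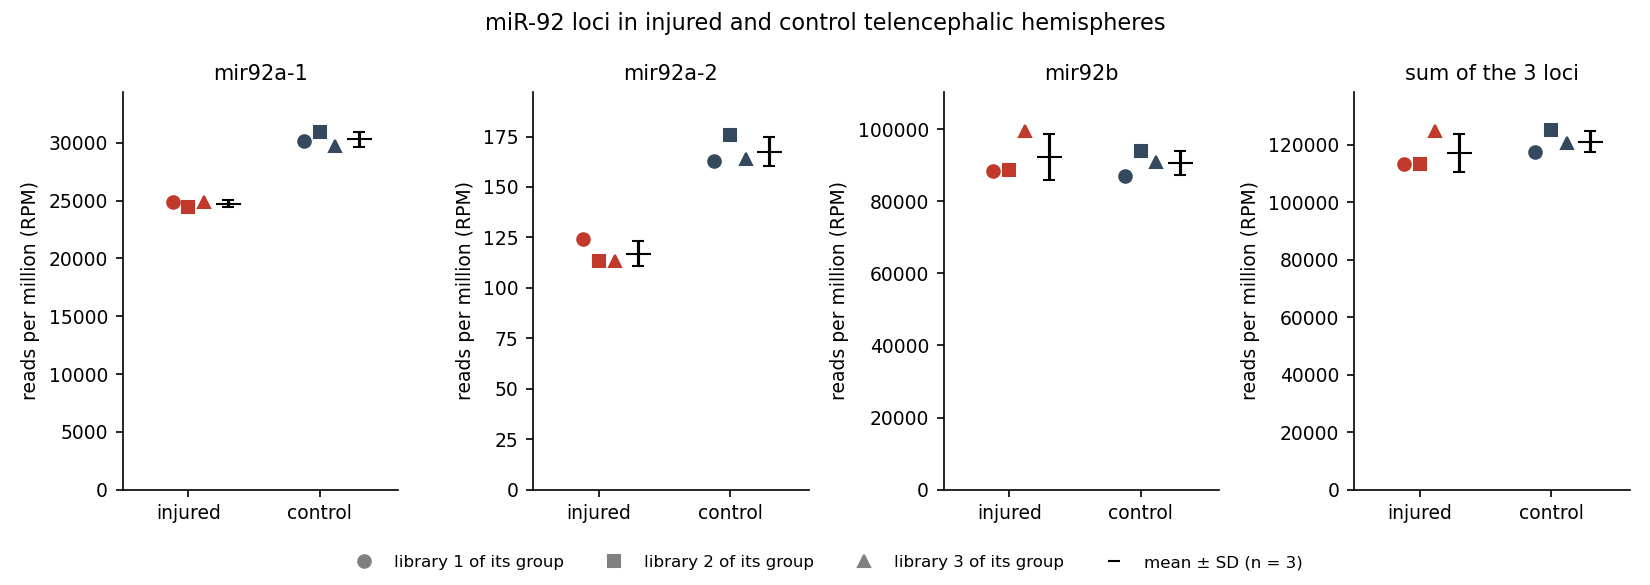
Reads per 1000000 reads at miRNA loci (vertical axes, from 0) for each miR-92 locus and their sum, with each library as a point and the mean ± SD at its right. At mir92a-1 the 3 injured libraries lie between 24405 and 24906 RPM, below the control libraries at 29740 to 30938 RPM, whereas the groups overlap at mir92b and in the sum.

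The fit across all tested loci, with libraries scaled by their trimmed means of M values (TMM), gave log2 fold changes in the same order. The log2 fold change, injured over control, was −0.56 (SE 0.09) at mir92a-2, −0.33 (SE 0.05) at mir92a-1 and −0.01 (SE 0.07) at mir92b. The median over the 188 tested loci was 0.03. On this scale mir92a-2 held rank 4 from below among the 188 loci and mir92a-1 rank 10, and 80 loci stood at or below mir92b. On counts per 1000000 reads after TMM (CPM), mir92a-1 averaged 24415 ± 688 in injured and 30676 ± 87.1 in control hemispheres (SD, n = 3 each). mir92a-2 averaged 115 ± 4.45 CPM in injured and 170 ± 4.15 CPM in control hemispheres (SD, n = 3 each).

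The spread between replicates differed among the loci. For mir92b the SD was 6.92% of the mean in injured and 3.72% in control libraries, while counting error alone would give at most 0.0989% and 0.211%. For mir92a-1 it was 1.14% in injured and 2.00% in control libraries, against counting errors of at most 0.189% and 0.369%. For mir92a-2 it was 5.40% in injured and 4.35% in control libraries, and counting error gave up to 2.77% and 4.97%. The spread of mir92a-2 among control libraries was thus within what counting error gives, while its spread among injured libraries, and that of mir92a-1 and mir92b in both groups, was above it.

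**Figure D2:**
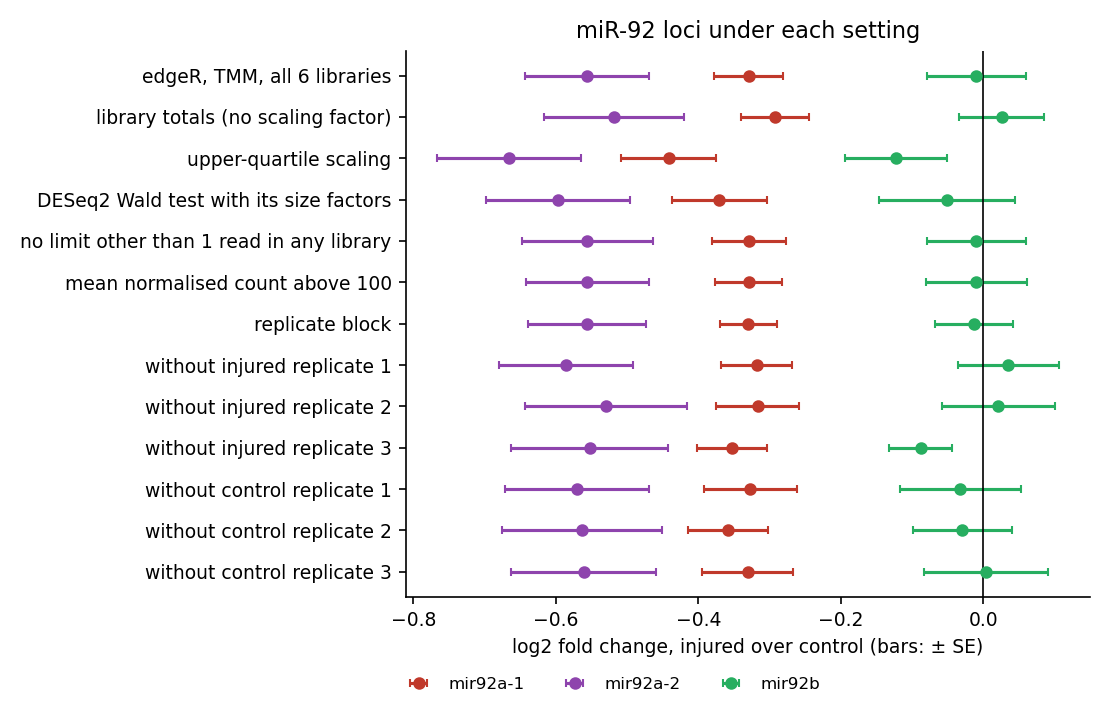
Log2 fold change of each miR-92 locus, injured over control (horizontal axis, bars ± SE), in the fit with TMM scaling and all 6 libraries and under each alternative (rows). mir92a-2 and mir92a-1 stay below 0 in each row, from −0.67 to −0.52 and from −0.44 to −0.29, whereas mir92b lies on both sides of 0, from −0.12 to 0.04.

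The 3 loci together made up 11.7% ± 0.653 of the reads at miRNA loci in injured and 12.1% ± 0.377 in control hemispheres (SD, n = 3 each). Their sum was 113329, 113250 and 124593 RPM in the injured libraries, against 117458, 124961 and 120657 RPM in the control libraries. The groups overlapped, and injured libraries 1 and 2 lay below the controls while injured library 3 lay within their range. The means were 117057 ± 6526 RPM in injured and 121026 ± 3765 RPM in control hemispheres (SD, n = 3 each), a log2 ratio of −0.05. The difference of −3969 RPM was smaller than the SD of the injured libraries. It was composed of −5555 RPM at mir92a-1, −50.5 RPM at mir92a-2 and 1636 RPM at mir92b. Without injured library 3 the log2 ratio of the sum was −0.10. It was −0.02 without control library 2, and −0.03 and −0.02 without injured library 1 or 2.

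Shares inside the family need no scaling between libraries. They are shares of counted reads. Reads that fit both mir92a copies may have been lost, so the share of mir92b may be too high and the sum too low. mir92b supplied 77.9%, 78.4% and 79.9% of the family's reads in the injured libraries, against 74.2%, 75.1% and 75.2% in the control libraries. mir92a-1 supplied 22.0%, 21.5% and 19.99% in the injured libraries, against 25.7%, 24.8% and 24.6% in the control libraries. The groups did not overlap for either locus. Together they supply nearly all reads of the family, so their shares mirror each other and are not separate observations. As mir92a-1 was chosen with its difference known, the shares are a description only. The mean share of mir92b was 78.7% ± 1.045 in injured and 74.8% ± 0.573 in control hemispheres (SD, n = 3 each). That of mir92a-1 was 21.2% ± 1.04 in injured and 25.03% ± 0.572 in control hemispheres (SD, n = 3 each). The share of mir92b was thus 3.91 percentage points higher in injured hemispheres, and between 3.31 and 4.31 points higher when 1 library was left out.

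mir92a-2 supplied 0.110%, 0.0999% and 0.0911% of the family in the injured libraries, against 0.139%, 0.141% and 0.136% in the control libraries. The 95% exact intervals ran from 0.0862% to 0.115% over the injured libraries and from 0.123% to 0.153% over the control libraries. They cover counting error only. As the locus was chosen with this contrast known, nothing is read from their distance.

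As ratios of reads in the same library, mir92a-1 gave 28.2, 27.5 and 25.01 reads per 100 mir92b reads in the injured libraries, against 34.6, 33.0 and 32.8 in the control libraries. Each injured library was below each control library. The means were 26.9 ± 1.66 in injured and 33.5 ± 1.02 in control hemispheres (SD, n = 3 each). mir92a-2 gave 4.99, 4.63 and 4.56 reads per 1000 mir92a-1 reads in the injured libraries, against 5.40, 5.68 and 5.50 in the control libraries. The ratio between the mir92a copies was therefore also lower in injured hemispheres, at 4.73 ± 0.233 against 5.53 ± 0.144 in control hemispheres (SD, n = 3 each). Both loci are annotated as sources of miR-92a. Reads that match both equally well can be lost or misplaced under a mapping quality limit, so the split between the copies is uncertain. The level of the mir92a loci relative to mir92b is uncertain for the same reason. As the miR-92 loci were chosen with their contrast known, these ratios are a description only.

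**Figure D3:**
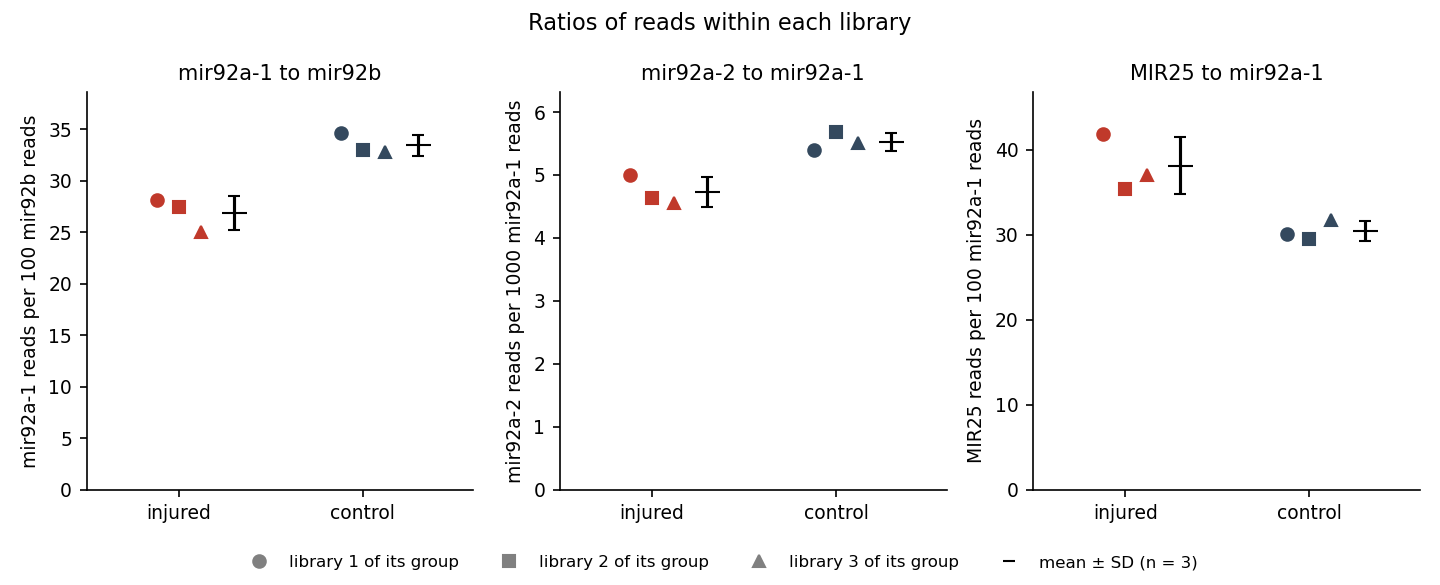
Reads at 1 locus per 100 or 1000 reads at another in the same library (vertical axes, from 0), with each library as a point and the mean ± SD at its right. mir92a-1 per 100 mir92b reads is 25.01 to 28.2 in injured and 32.8 to 34.6 in control libraries, and MIR25 per 100 mir92a-1 reads is 35.4 to 41.9 in injured and 29.5 to 31.7 in control libraries.

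Other loci of the same seed family were taken by name, and 2 were found. Of the 434 loci, 331 carry a symbol, and loci without a symbol could not be found in this way. MIR25 (ENSDARG00000101889), the locus of miR-25, had 10419, 8636 and 9219 RPM in the injured libraries, against 9087, 9117 and 9428 RPM in the control libraries. The groups overlapped, with injured library 1 highest and injured library 2 lowest. Its log2 fold change was −0.01 (adjusted p = 0.975 by edgeR; SE 0.08), and its sign became positive with library totals as scaling and without injured library 2 or control library 3. MIR363 (ENSDARG00000081303), the locus of miR-363, had 0 reads in the 6 libraries. By a floor of 3 reads this allows up to 0.261 RPM in the injured and 1.21 RPM in the control libraries. Only MIR25 had reads enough to be tested. It was not called by edgeR or DESeq2, and its unadjusted p by edgeR was 0.944. Of all 188 tested loci edgeR called 12.8%, so nothing is read from this single locus about the family.

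With MIR25 added, the family took 126482 ± 6416 RPM in injured and 130236 ± 3769 RPM in control hemispheres (SD, n = 3 each), a log2 ratio of −0.04. MIR25 supplied 7.46% ± 0.833 of this pool in injured and 7.08% ± 0.241 in control hemispheres (SD, n = 3 each), and the groups overlapped. Set against mir92a-1, MIR25 gave 41.9, 35.4 and 37.0 reads per 100 mir92a-1 reads in the injured libraries, against 30.1, 29.5 and 31.7 in the control libraries. This ratio was higher in each injured library than in each control library. As mir92a-1 was chosen with its difference known, nothing more is read from it.

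The neighbours of the loci were read from RefSeq's annotation of GRCz12tu, an assembly other than the one the reads were aligned to, and only names and order were taken from it. Within 10 kb, mir92a-1 had 5 miRNA genes as neighbours, which were dre-mir-19b, dre-mir-20a, dre-mir-19a, mir18a and mir17a-1. mir92a-2 had 2, mir18b and mir17a-2. mir92b had 0. mir25 neighboured mir19d and mir93, and mir363 neighboured mir19c, mir20b and mir18c.

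These partner genes belong to the miR-17, miR-18 and miR-19 families, which in mammals act with miR-92a in the control of cell growth and survival. The count files held 13 loci with such names, of which 10 had a read and 8 were abundant enough to be tested. None of the 8 was called in either direction by edgeR, DESeq2 or under another setting of the fit. Of all 188 tested loci edgeR called 12.8%, so with 8 loci nothing is read from the absence of a call. An unadjusted p below 0.05 by edgeR was found at 1 of the 8, against 41 of all 188 loci. Of the 8, 5 had a positive and 3 a negative log2 fold change. Their median was 0.08, beside 0.03 over all tested loci. The summed level of the 13 loci was 3147 ± 115 RPM in injured and 3055 ± 230 RPM in control hemispheres (SD, n = 3 each). Most of this sum came from mir19d and mir93, which neighbour mir25 and not a miR-92 locus. mir19d averaged 1583 RPM in injured and 1546 RPM in control hemispheres, and mir93 960 and 923 RPM. The sum therefore says little about the clusters of the mir92a loci.

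Of the partners with a symbol of their own in the mir92a-1 cluster, MIR20A (ENSDARG00000104910) had 93.4, 94.2 and 81.4 RPM in the injured libraries, against 71.2, 82.3 and 85.6 RPM in the control libraries. Its log2 fold change was 0.13 (adjusted p = 0.563 by edgeR; SE 0.11). MIR19B1 (ENSDARG00000100273) had 43.8, 32.6 and 36.7 RPM in the injured libraries, against 26.3, 27.9 and 31.5 RPM in the control libraries. It had the highest log2 fold change of the partners, 0.36 (adjusted p = 0.192 by edgeR; SE 0.15), and its groups did not overlap. Such separation, with injured above control, was found at 3 of the 8 tested partners, the others being the MIR17 loci. Over all 188 tested loci, 22.9% were separated in either direction and 5.85% with injured below control. miR-20a is a relative of miR-17.

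The levels inside this cluster were far apart. mir92a-1 gave 266, 259 and 306 reads per MIR20A read in the injured libraries, against 424, 376 and 347 in the control libraries. It gave 568, 748 and 679 reads per MIR19B1 read in the injured libraries, against 1149, 1107 and 944 in the control libraries. Both ratios were lower in each injured library than in each control library. The control ratios to MIR19B1 rest on 69, 112 and 78 reads at that locus. As mir92a-1 was chosen with its difference known, nothing more is read from these ratios. The inserts counted were all of mature miRNA length, so no scaling to length was applied, and reads of MIR19B1 and MIR20A that also fit other loci may have been lost.

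The symbols MIR17, MIR18A and MIR19A are each carried by 2 loci, and these copies could not be assigned to the cluster of mir92a-1 or of mir92a-2. The MIR17 loci had 21.2 ± 1.36 RPM (ENSDARG00000080742) and 20.9 ± 1.85 RPM (ENSDARG00000104155) in injured hemispheres, against 18.1 ± 1.67 and 17.7 ± 0.399 RPM in control hemispheres (SD, n = 3 each). At both loci each injured library lay above each control library. Their log2 fold changes were 0.19 (adjusted p = 0.453 by edgeR; SE 0.12) and 0.20 (adjusted p = 0.406 by edgeR; SE 0.12). The MIR18A locus ENSDARG00000098078 had 289 ± 31.9 RPM in injured and 295 ± 9.78 RPM in control hemispheres (SD, n = 3 each). Its log2 fold change was −0.07 (adjusted p = 0.798 by edgeR; SE 0.10), with a positive sign without injured library 2. The MIR18A locus ENSDARG00000080931 had 144 ± 2.40 RPM in injured and 146 ± 12.6 RPM in control hemispheres (SD, n = 3 each). Its log2 fold change was −0.06 (adjusted p = 0.841 by edgeR; SE 0.10), with a positive sign without control library 3. The MIR19A loci had at most 5 reads in a library and were not tested.

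The reads of mir92a-2 were compared with the sums of these copies. mir92a-2 gave 2.83, 2.62 and 2.89 reads per read at both MIR17 loci in the injured libraries, against 4.81, 4.73 and 4.50 in the control libraries. Per read at both MIR18A loci it gave 0.264, 0.282 and 0.264 in the injured libraries, against 0.386, 0.402 and 0.351 in the control libraries. Each injured library lay below each control library in both ratios. The MIR17 loci had only 43 to 79 reads (ENSDARG00000080742) and 45 to 70 reads (ENSDARG00000104155) in the control libraries. mir92a-2 was itself chosen with its difference known.

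The cluster of mir25 was set beside these. MIR25 gave 10.9, 8.61 and 10.02 reads per mir93 read in the injured libraries, against 10.01, 9.12 and 10.9 in the control libraries, and the groups overlapped. mir93 (ENSDARG00000100982) had a log2 fold change of 0.02 (adjusted p = 0.936 by edgeR; SE 0.08), negative with upper-quartile scaling, with DESeq2 and without injured library 2 or control library 3. mir19d (ENSDARG00000100879), the most abundant partner with 1583 ± 64.1 RPM in injured and 1546 ± 172 RPM in control hemispheres (SD, n = 3 each), had a log2 fold change of −0.00 (adjusted p = 0.986 by edgeR; SE 0.09), with a positive sign under 4 of the 12 alternatives. In the cluster of mir363, mir19c, MIR20B and mir18c had 0 reads in each library, as MIR363 did.

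**Figure D4:**
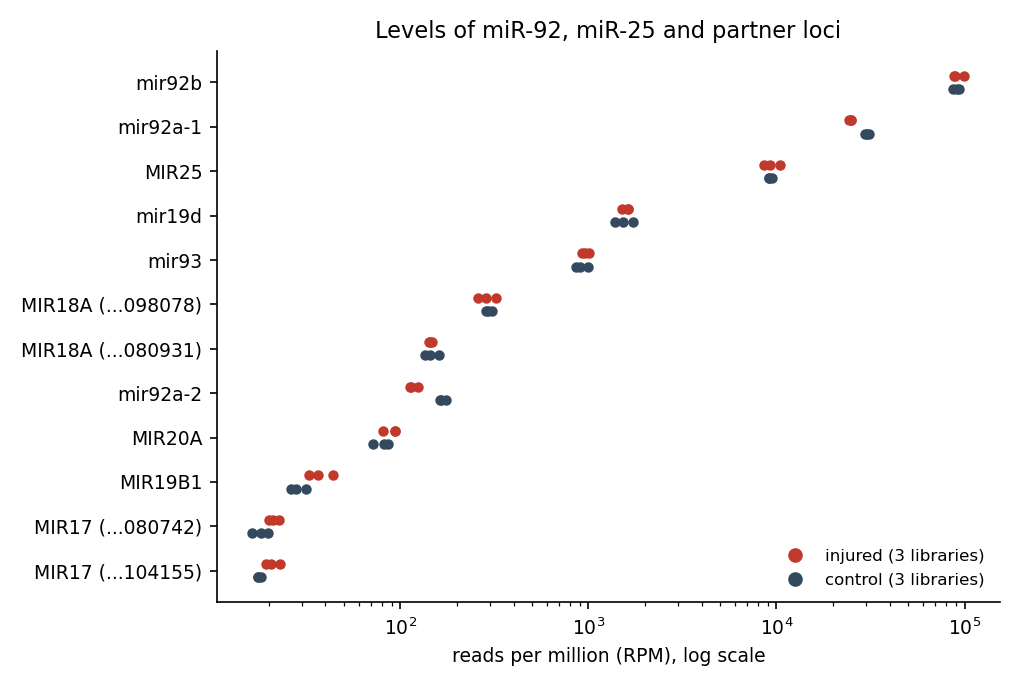
RPM in each library (horizontal log axis, 1 point per library) of the miR-92 loci, MIR25 and the tested partner loci, in the order of their mean level. mir92b lies between 87121 and 99574 RPM, mir92a-1 between 24405 and 30938 RPM and MIR25 between 8636 and 10419 RPM, whereas the MIR17 loci stay below 23 RPM.

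**Figure D5:**
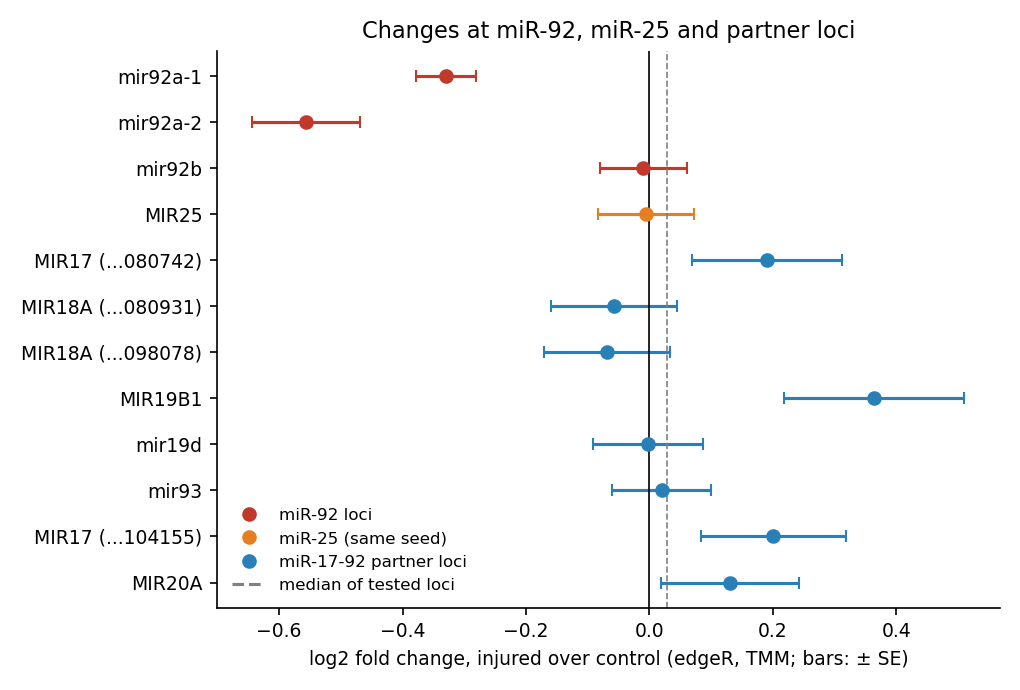
Log2 fold change, injured over control (horizontal axis, bars ± SE), of the miR-92 loci, MIR25 and the 8 tested partner loci, with the median of all tested loci as a dashed line. The mir92a loci lie at −0.33 and −0.56, and the partner loci between −0.07 and 0.36.

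The miR-92 loci also differed in the loci they resembled across libraries. Pearson's correlation of log2 CPM over the 6 libraries was 0.98 between mir92a-1 and mir92a-2, 0.21 between mir92a-1 and mir92b and 0.07 between mir92a-2 and mir92b. These values rest on 2 groups of 3 libraries that also differ in depth, and they are given as a description. Of all tested loci, those most like mir92a-1 were MIR26A2 (ENSDARG00000080579, named mir-26b in the study) with 0.99, mir92a-2 with 0.98 and MIRLET7F1 with 0.95. Those most like mir92a-2 were the same MIR26A2 locus with 0.99, mir92a-1 with 0.98 and MIR15A (ENSDARG00000080168) with 0.96.

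MIR26A2 at this locus differed far more between groups, with 0.825, 0.520 and 0.872 RPM in the injured libraries, against 320, 283 and 384 RPM in the control libraries, a log2 fold change of −8.80 (adjusted p = 4.24e-07 by edgeR; SE 0.24). MIRLET7F1 (ENSDARG00000082942) of the let-7 family averaged 18724 ± 361 RPM in injured and 20906 ± 476 RPM in control hemispheres (SD, n = 3 each), and its log2 fold change was −0.20 (adjusted p = 0.0756 by edgeR; SE 0.06). It passed the threshold with DESeq2 (adjusted p = 0.0179), with edgeR under upper-quartile scaling (adjusted p = 0.0453), and with the replicate number as a block (adjusted p = 0.0451). MIR15A averaged 417 ± 20.99 RPM in injured and 473 ± 18.9 RPM in control hemispheres (SD, n = 3 each), and its log2 fold change was −0.22 (adjusted p = 0.116 by edgeR; SE 0.07). It passed with DESeq2 (adjusted p = 0.00814). These loci were picked for following a mir92a locus over the same libraries, so a lower level in injured libraries was built into the choice. Nothing is read from their p-values about the mir92a loci.

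mir92b had other neighbours in pattern, which were MIR30C1 with a correlation of 0.95, mir459 with 0.94 and mir203b with 0.89. All 3 were highest in injured library 3, as mir92b was. They were picked by that correlation, so the shared peak is not a separate result. mir203b, of the skin-rich miR-203 family, had 350, 468 and 714 RPM in the injured libraries, against 331, 524 and 453 RPM in the control libraries. MIR30C1 had 60.7, 64.9 and 91.6 RPM in the injured libraries, against 63.2, 73.6 and 64.2 RPM in the control libraries. mir459 had 4, 12 and 104 reads in the injured libraries, against 1, 11 and 10 reads in the control libraries. None of the 3 was called by edgeR, with adjusted p of 0.891 for MIR30C1, 0.909 for mir459 and 0.792 for mir203b.

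The summed leucocyte list was higher in each injured library than in each control library. A part of the neuron list that rests mainly on mir128-1 was lower. Of the 188 tested loci taken singly, 22.9% had groups that did not overlap, in either direction. The leucocyte list, of which 2 loci named MIR142 carried the reads, summed to 2606 to 4222 RPM in injured and 1306 to 2156 RPM in control libraries. Its other 2 loci, MIR223 and mir150, had 0 reads. The erythrocyte loci MIR144 and MIR451A summed to 2326 to 2754 RPM in injured and 2006 to 2506 RPM in control libraries, and the endothelium loci to 7736 to 7819 RPM in injured and 7791 to 8098 RPM in control libraries. The muscle list, with MIR206 at 0 reads, summed to at most 6.19 RPM in injured and 5.25 RPM in control libraries. The whole neuron list overlapped between the groups. Without dre-mir-132-2 it was lower in each injured library, with 7094 to 8267 RPM in injured and 9017 to 9213 RPM in control libraries. Of its 19 tested loci, 1 was called lower and 0 higher, beside 2.13% of all 188 tested loci called lower. That locus, mir128-1 (ENSDARG00000081902), had 5091, 5494 and 4633 RPM in the injured libraries, against 6553, 6756 and 6184 RPM in the control libraries. Its log2 fold change was −0.40 (adjusted p = 0.0157 by edgeR; SE 0.07), and the call was lost without injured library 3 or without any 1 control library, with adjusted p between 0.0535 and 0.0688. mir128-1 and the sum without dre-mir-132-2 were singled out after their values were seen. They are not separate results. mir128-1 averaged 5073 of the 7670 RPM of this sum in injured and 6498 of the 9106 RPM in control hemispheres. The part of such cells in the levels of the miR-92 loci was not tested.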

How the data were processed

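The authors deposited 1 table per library with raw, unnormalised counts for each annotated miRNA locus. Per the study's methods, the authors trimmed adaptors with Cutadapt, kept inserts of mature miRNA length, aligned them to GRCz11 with STAR under a mapping quality limit and counted with HTSeq in union mode. The submitters' processing notes name BWA instead of STAR, and the labels name a total RNA kit where the methods name a small RNA kit. For the tools, no version is given in the sources used here. Reads that fit several loci fall below such a quality limit, so copies of 1 miRNA can be undercounted.

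HTSeq's 5 summary lines were left out. Reads outside miRNA loci made up 11.4% to 12.3% of reads in injured and 11.6% to 11.8% in control libraries, and ambiguous reads at most 0.0125%. RPM are counts per 1000000 reads at miRNA loci. Counts were tested with edgeR 4.0.16 in R 4.3.3 (quasi-likelihood test, two-sided, group as the only term, TMM scaling) on loci with a mean normalised count above 10, and p-values were adjusted over all tested loci. Standard errors (SE) are the log2 fold change divided by the root of the F statistic. Intervals are exact binomial (SciPy 1.17.1), and cover counting error only. Log2 CPM used a prior count of 2. Each library was counted as its own replicate, since replicate pairs differed by a chi-square per degree of freedom of at least 42.8. That shows differences beyond counting error, not separate fish. The study calls its mRNA samples biological replicates, while the labels here do not say whether replicates came from separate fish. The p-values set the group difference against the spread between these libraries, which may in part be technical.

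Members and lists were chosen with earlier results of these data known. Named loci are the members, other loci of their seed by name, miR-17-92 partners that neighbour a member, were called or were extreme in level, the 3 loci most correlated with each member, and those next to it in rank. Partner loci were found by name or within 10 kb in RefSeq, whose table used here gives no strand. Loci without a symbol could be missing from the lists taken by name, the marker lists included. Alternatives were other scalings, DESeq2 1.42.0, other count limits, a block for the replicate number, and leaving out each library. The test was first run on simulated counts with known changes. These were larger than the changes at the miR-92 loci, so that run says nothing about changes of their size.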

Additional observations from a re-analysis of the deposited data

How the results depend on the processing

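The log2 fold changes of mir92a-1 and mir92a-2 were negative under each alternative run for them. The shares were rerun only with the replicate number as a block and with 1 library left out. The block returned the same 3.91 points for mir92b, as it had to, since each replicate number holds 1 injured and 1 control library. Since the groups did not overlap, leaving out 1 library could not change the sign of the shift. These reruns are no support for loci chosen with this contrast known. Upper-quartile scaling shifted the median change over the tested loci by −0.11 on the log2 scale, and with it the log2 fold change to −0.44 at mir92a-1, −0.67 at mir92a-2 and −0.12 at mir92b, the log2 ratio to −0.20 for the sum of the miR-92 loci and −0.10 for the sum of the partner loci, and the count of loci higher in injured hemispheres to 11. DESeq2 gave −0.37 at mir92a-1, its size factors gave −0.13 for the sum of the miR-92 loci, and it called 9 loci lower. Library totals gave −0.29 at mir92a-1. The cause of these differences was not tested beyond the shift of the median.

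Leaving out 1 library gave −0.36 to −0.32 for mir92a-1, −0.59 to −0.53 for mir92a-2 and −0.09 to 0.04 for mir92b. It gave −0.10 to −0.02 for the sum of the miR-92 loci and −0.00 to 0.10 for the sum of the partner loci. It left 10 to 24 called loci, 7 to 18 higher and 3 to 6 lower, with fewer samples in each fit.

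Some loci that were not called changed sign, none of them past the threshold. Scaling to library totals gave log2 fold changes of 0.033 for MIR25, 0.035 for mir19d and 0.034 for mir9-4. Upper-quartile scaling gave −0.089 for mir93 and −0.035 for MIR30C1, and DESeq2 gave −0.021 for mir93. Without 1 library the values ran from −0.067 to 0.056 for MIR25, −0.11 to 0.023 and −0.14 to 0.0064 for the MIR18A loci, −0.065 to 0.039 for mir19d, −0.016 to 0.037 for mir93, −0.064 to 0.049 for mir9-4, −0.15 to 0.20 for MIR30C1, −0.14 to 0.42 for mir203b and −1.97 to 1.06 for mir459. The negative values of mir203b and mir459 came without injured library 3, where both were highest.

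Injured and control libraries share replicate numbers. Deviations from the group means correlated at 0.32, 0.12 and 0.08 for same-numbered libraries, so the numbers were not taken to pair them, although each injured library correlated best with the control library of its own number. With the replicate number as a block, the log2 fold change was −0.33 at mir92a-1, −0.56 at mir92a-2, −0.01 at mir92b and 0.0023 at mir19d, the log2 ratio of the miR-92 sum was −0.05, and 22 loci were called. The block ended the call of mir30d and brought MIRLET7F1 past the threshold. Among the miR-92 loci depth limits mir92a-2 most, with 405 reads in the shallowest control library.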
